A study of Mus musculus with 24 samples.

Results

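The genes described here are 10 Fbxw genes of mouse chromosome 9 that are transcribed in the oocyte: Fbxw15, Fbxw16, Fbxw18, Fbxw19, Fbxw20, Fbxw21, Fbxw22, Fbxw24, Fbxw26 and Fbxw28. They were chosen by symbol and matched to their Ensembl gene identifiers, and make up 10 of the 55471 annotated genes in the files. An F-box protein with WD40 repeats is a substrate receptor of the SCF ubiquitin ligase. Its F-box binds the adaptor Skp1, which sits on the Cul1 scaffold with the RING protein Rbx1, and its WD40 propeller binds the protein that is to be ubiquitinated. The receptor thus decides what the ligase marks for the proteasome. Mouse oocytes store transcripts of this family as part of the maternal mRNA supply, much of which is cleared when the embryonic genome is activated at the 2-cell stage.

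The study measured RNA and m6A over the maternal-to-zygotic transition. MII oocytes came from superovulated wild-type B6D2F1 females with the cumulus cells removed. Embryos of B6D2F1 matings were grown in KSOM and taken late in the 1-cell stage (L1C) or late in the 2-cell stage (L2C). At each stage 3 input libraries and 3 libraries of RNA bound by an anti-m6A antibody (IP) were made by SLIM-seq, a low-input form of m6A immunoprecipitation. A second experiment compared L2C embryos injected at the zygote stage with Cas13d mRNA and 3 crRNAs against Ythdc1, the nuclear m6A reader, with embryos given Cas13d mRNA only (Ctrl). KD and Ctrl embryos therefore both carry the nuclease. The labels do not say whether replicates of a group came from separate animals or pools, so the p-values measure the spread between these libraries.

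The SLIM-seq libraries held 11107421 to 39739950 estimated counts and the 5 complete knockdown libraries 8696476 to 14500548 counts. The file of Ythdc1 KD replicate 3 ends before chromosome 9, so the family was compared in 2 KD and 3 Ctrl libraries. Ythdc1 was lower in the KD by edgeR over these 5 libraries (log2 change -0.99 ± 0.08 SE, adjusted p = 5.21e-08). Over the genes that all 6 files share it had 493 to 521 CPM (counts scaled to the library total) in the 3 KD libraries and 1048 to 1138 in the 3 Ctrl libraries. By their sums the stages carried their markers, as 12 oocyte transcripts summed to 25898 to 26803 CPM in the MII inputs and 899 to 932 in the L2C inputs, and 9 markers of the 2-cell embryo to 36.6 to 44.1 and 801 to 1040. At L2C against MII all 12 oocyte transcripts were called lower. Of the 9 markers of the 2-cell embryo 8 were called higher and 1 lower, Tcstv1, with 30.1 ± 3.62 CPM at MII and 17.3 ± 1.66 at L2C. Of 12 cumulus and granulosa cell markers, 8 passed the filter on low counts in the inputs, while Ptx3 was at 0 in the 9 inputs and Amh and Foxl2 averaged at most 0.0599 CPM at each stage. The summed level of that list was 64.6 to 73.7 CPM in MII inputs, 46.6 to 51.4 in L1C inputs and 247 to 265 in L2C inputs. Cyp19a1, the aromatase of granulosa cells, made up most of the MII sum with 43.0 ± 4.95 CPM, and had 27.2 ± 2.94 at L1C and 1.43 ± 0.61 at L2C. Amhr2 made up 246 CPM of the L2C sum on average, and no other marker averaged above 7.90 CPM (Kitl, at MII).

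All 10 members lie on the minus strand within the 651 kb between 109139447 and 109790670 of chromosome 9 (GRCm38), in a cluster of 15 Fbxw genes. Each has 10 exons in the transcript with the longest coding sequence, and that sequence is 1392 to 1407 bases long. Across the 45 pairs of members the coding sequences were 82.4% to 92.5% identical, with a median of 85.6%. Fbxw28 is nearly the same as its neighbour Fbxw14, which is not among the 10, at 99.1% identity. This similarity limits how well reads can be assigned. Of the 31-base words of the exons, 65.3% to 87.4% occurred once in the genome for 9 members, but 20.6% for Fbxw28, whose other 79.4% recurred in the cluster. Windows of 150 bases along the transcript held at least 1 such word in 97.6% to 100% of cases for 9 members and in 65.0% for Fbxw28. Values of Fbxw28 are therefore uncertain in their split from Fbxw14, and every test was repeated with both summed. The gene spans of Fbxw16 and Fbxw15 overlap annotated genes of the plus strand (Gm42494 and Gm42493, and Gm42756). The exon counting did not use strand, so reads cannot be told apart where exons of these pairs overlap. Whether their exons overlap was not examined.

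**Figure D1:**
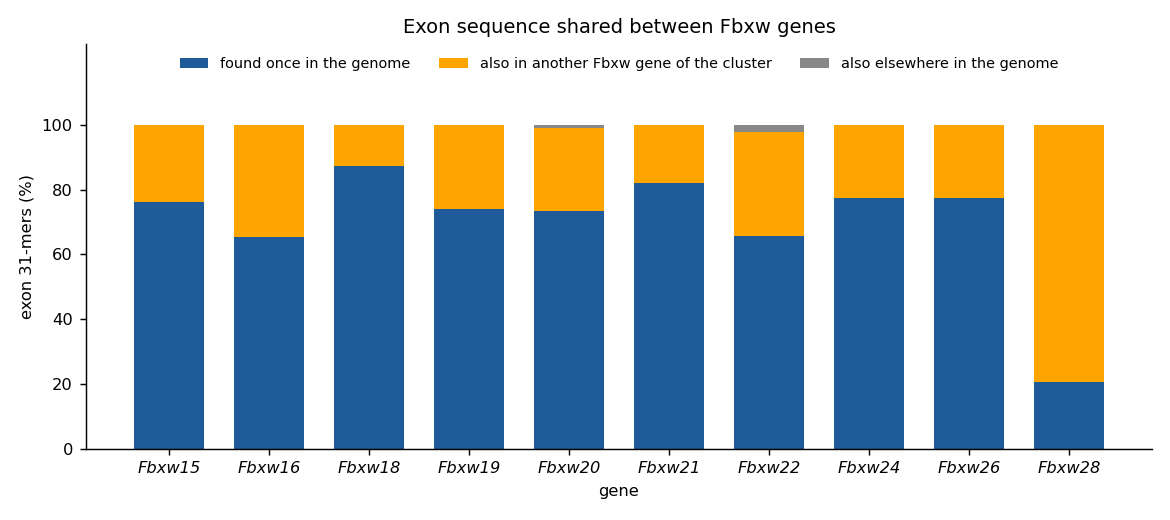
Share of the 31-base words of each member's exons (y axis, %) that occur once in the genome (blue), recur in another Fbxw gene of the cluster (orange) or recur elsewhere (grey), for the 10 genes on the x axis. Fbxw28 stands apart with 20.6% of its words found once, against 65.3% to 87.4% for the other 9.

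The promoters are alike as well. RefSeq promoter windows (GRCm38.p6, 250 bases before to 50 after the start) were listed for 9 of the 10 members, and their 36 pairs were 85.9% to 97.0% identical, with a median of 91.0%. Shown here are those of Fbxw24, the member with the highest level per kb of exon, of Fbxw26, the member with the largest fall in the Ythdc1 KD, and of Fbxw16, the member that fell least at L2C. All are on the minus strand. Capitals mark the E-box letters CANNTG, the core bound by bHLH factors such as FIGLA.
Fbxw24, chr9:109626010-109626309: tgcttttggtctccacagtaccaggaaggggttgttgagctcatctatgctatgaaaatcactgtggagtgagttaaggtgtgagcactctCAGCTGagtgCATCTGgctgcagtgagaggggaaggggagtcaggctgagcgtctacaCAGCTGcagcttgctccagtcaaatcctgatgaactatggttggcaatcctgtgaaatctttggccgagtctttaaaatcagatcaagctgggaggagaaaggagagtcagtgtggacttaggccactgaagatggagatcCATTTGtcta
Fbxw26, chr9:109746040-109746339: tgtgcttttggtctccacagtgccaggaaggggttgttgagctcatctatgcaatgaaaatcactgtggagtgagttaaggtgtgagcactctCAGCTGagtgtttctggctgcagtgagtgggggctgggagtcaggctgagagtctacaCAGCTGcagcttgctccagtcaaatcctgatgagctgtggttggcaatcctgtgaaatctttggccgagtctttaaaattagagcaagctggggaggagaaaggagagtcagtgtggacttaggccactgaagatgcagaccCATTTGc
Fbxw16, chr9:109449091-109449390: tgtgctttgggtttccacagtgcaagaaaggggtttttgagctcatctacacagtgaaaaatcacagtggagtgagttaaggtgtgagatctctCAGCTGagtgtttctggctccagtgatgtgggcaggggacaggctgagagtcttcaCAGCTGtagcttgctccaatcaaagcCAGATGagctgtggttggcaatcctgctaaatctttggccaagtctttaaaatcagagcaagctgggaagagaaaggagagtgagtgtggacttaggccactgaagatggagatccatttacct
CANNTG was present in 9 of 9 member windows and in 72.1% of all 27025 listed windows. It reads the same on both strands, and all motifs were searched on both. The form CAGCTG, singled out after these sequences were seen, was present in 9 of 9 member windows and in 16.1% of all. It was also in 2 of 3 listed windows of other Fbxw genes of the cluster. In 8 member windows it occurred at 2 places, the first 139 to 183 bases before the start, and once in Fbxw20, at 80 bases. The letters TAATTA and TAATTG, known for the homeobox factor NOBOX, were in 0 of 9 windows and in 5.31% and 8.15% of all. TGATTG, known for LHX8, was in the window of Fbxw16 alone and in 14.4% of all. These matches are descriptions of 300 bases each and do not show binding.

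Letters that m6A writers can use are shared in the same way. GGACT, a favoured form of the DRACH consensus read as RNA, was present in the longest-coding transcript of all 10 members and in 86.8% of 21952 transcripts. It occurred at a median of 1.33 per kb in the members and 1.02 per kb in all transcripts. Fbxw15 had 4 copies, Fbxw21 had 3, Fbxw16 had 1 and the other 7 had 2 each. Each member carried a copy in its coding sequence 522 to 534 bases from the start codon, in nearly the same letters. The copies of 4 members are shown, with GGACT in capitals, because Fbxw26, Fbxw28 and Fbxw21 were among the members called in the IP and Fbxw18 had the second largest change in the KD.
Fbxw26, coding position 525: tatcaaactgtgGGACTgtcacaacagcg
Fbxw28, coding position 522: tatcaaactgtgGGACTgccacaacaagg
Fbxw21, coding position 525: tatcaaactgtgGGACTgtcacaacagtg
Fbxw18, coding position 534: tatcaaactgtgGGACTgtaatagcagtg
A second shared copy lay 17 bases before the start codon in 8 members, all but Fbxw19 and Fbxw16, whose annotated transcript starts after that position. In Fbxw26 it reads as follows.
Fbxw26, 17 bases before the start codon: gagagtcagtgtGGACTtaggccactgaa
Fbxw21 and Fbxw19 also shared a copy at coding position 872, and Fbxw15 alone among the members had copies at 90 and 292.
Fbxw21, coding position 872: aaagagccttctGGACTccaagaagggaa
Fbxw15, coding position 292: cctttgatgtgtGGACTttttggatatgc
The deposited values are per gene, so none of them tells which copy, if any, carried the mark.

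In the oocyte the family was abundant and uneven, and all 10 members passed the filter on low counts in each fit. Values below are CPM scaled by TMM over the 18 SLIM-seq libraries, as mean ± SD of 3 libraries. Summed over the 10 members they were 5408, 5426 and 5420 CPM in the MII inputs. Fbxw24 alone had 1825, 1880 and 1902 CPM in the MII inputs, and Fbxw28 had 1570, 1575 and 1597. The other 8 members averaged from 81.5 ± 4.98 (Fbxw21) to 401 ± 12.4 CPM (Fbxw20). Between genes, levels are compared per kb of exon. On that scale Fbxw24 led at 1256 ± 26.7, followed by Fbxw28 at 810 ± 7.44 and Fbxw22 at 192 ± 1.81 CPM per kb. Fbxw26 (57.5 ± 0.91) and Fbxw21 (33.3 ± 2.03) were the lowest. Of the 9 neighbouring pairs in that order, 8 had ranges that did not overlap, and only Fbxw16 and Fbxw20, at 167 and 165 CPM per kb, did overlap. For scale, Skp1a, the gene of the Skp1 adaptor, had 184 ± 11.4 and Cul1 215 ± 12.0 CPM per kb.

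Fbxw24 and Fbxw28 together held most of the family signal at MII, with 41.4% ± 0.69 and 26.7% ± 0.19 of the summed level per kb. Which of them led depended on the length used. By the deposited TPM, whose lengths are whole gene spans, Fbxw28 had 35.2% and Fbxw24 27.8%. At L1C the order of these shares was unchanged on each scale. At L2C Fbxw24 had 46.0% ± 0.72 per kb of exon, and Fbxw16 was second with 13.7% ± 0.78, ahead of Fbxw28 at 12.7% ± 0.35, although the levels of these 2 overlapped.

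From MII to L1C 3 members changed and 7 did not pass the test. Summed over the family the L1C inputs had 5967, 4591 and 3637 CPM, a mean of 87.3% of MII. The 3 libraries were far less alike than the MII inputs. For each of the 10 members replicate 1 was the highest and replicate 3 the lowest L1C input, with ratios of 1.55 to 1.76 between them. The members thus deviated together and are not independent observations of a stage. Among 19903 genes tested in the 9 inputs, 2 members were higher at L1C and 1 was lower by edgeR at an adjusted p under 0.05, against 31.9% of all tested genes called higher and 24.3% called lower. The members' median log2 change was -0.15 and that of all genes 0.16.

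Fbxw26 had 106, 103 and 106 CPM in the MII inputs and 275, 208 and 176 in the L1C inputs. Its log2 change was 1.15 ± 0.19 SE (adjusted p = 1.96e-04). Fbxw15 had 168, 179 and 186 CPM at MII and 293, 225 and 181 at L1C, where replicate 3 fell within the MII range. It was called at a log2 change of 0.47 ± 0.18 (adjusted p = 0.036), but not under DESeq2 (adjusted p = 0.064) or without any of 5 single inputs, all 3 of MII and replicates 1 and 2 of L1C, where adjusted p reached 0.17 in edgeR. Fbxw18 moved the other way, from 210, 214 and 191 CPM to 140, 109 and 84.8, with a log2 change of -0.80 ± 0.19 (adjusted p = 0.0022). For the other 7 members the log2 changes lay between -0.31 (Fbxw19) and 0.36 (Fbxw21) and did not pass the test. Fbxw19 had 359, 347 and 330 CPM at MII and 325, 250 and 210 at L1C.

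**Figure D2:**
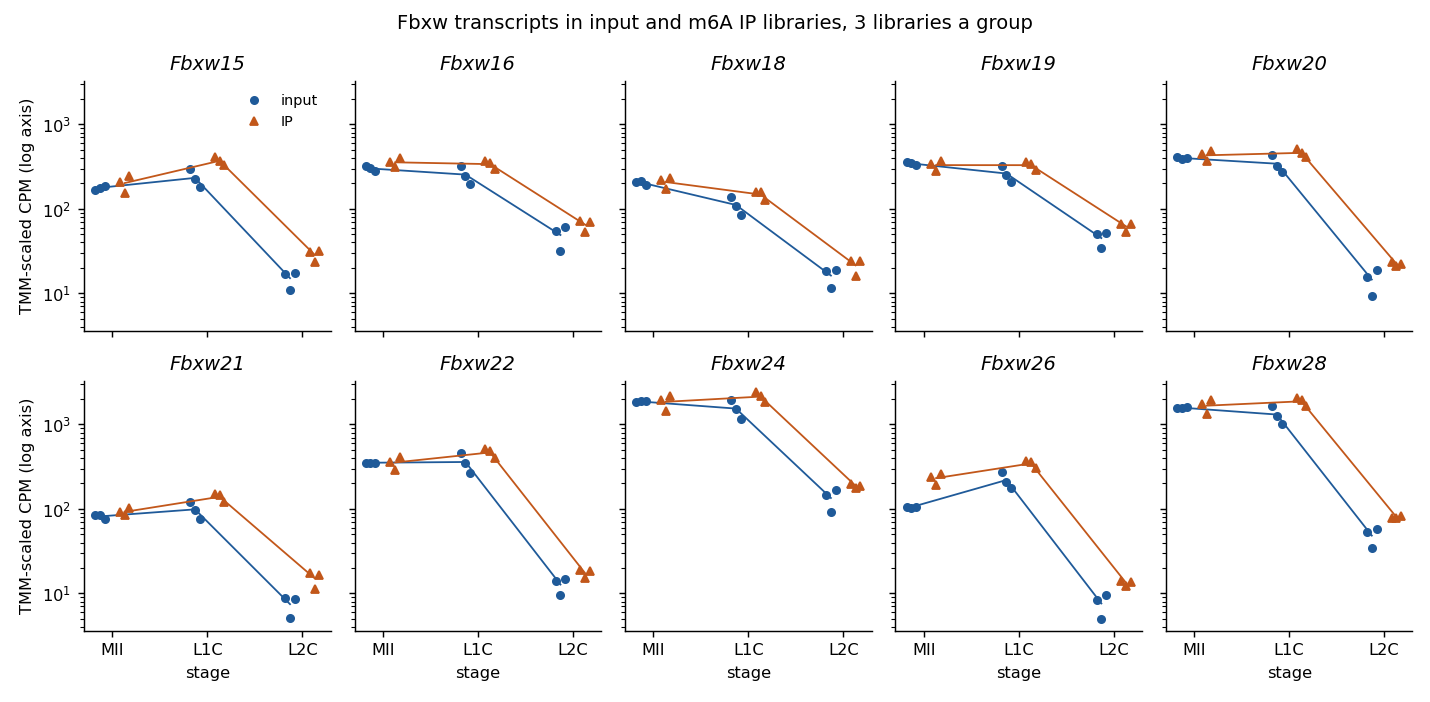
TMM-scaled CPM on a log axis (y) at MII, L1C and L2C (x) for each member, with 1 point per library, inputs as blue circles, IPs as orange triangles and lines through the group means. Every member drops from L1C to L2C in both kinds of library, Fbxw26 rises from 105 to 220 CPM between the MII and L1C inputs, and the 3 L1C inputs of each member spread by 1.55 to 1.76 times.

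Between L1C and L2C all 10 members fell. The summed level of the family was 385, 244 and 424 CPM in the L2C inputs, which is 7.42% of L1C and 6.48% of MII. All 10 members were called lower than at L1C, and their groups did not overlap. The background was high, as 38.8% of tested genes were called lower, 44.1% were called higher and 42.4% had lower groups without overlap. The median log2 change of the members was -3.59, against 0.17 over all tested genes. CPM are shares of a library, so a change in total RNA per embryo is not seen here, and fewer copies per embryo and a larger total cannot be told apart. The paper describes reverse transcription from an oligo-dT primer. A change in poly(A) tails, here or from MII to L1C, was not measured and cannot be told apart from a change in copies.

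The depth of the fall ranged widely, although differences between members were not tested. Fbxw26 (log2 change -4.60 ± 0.23 SE), Fbxw22 (-4.57 ± 0.21), Fbxw28 (-4.52 ± 0.21) and Fbxw20 (-4.31 ± 0.23) kept 4.14% to 5.05% of their L1C level, with adjusted p from 9.47e-11 to 3.40e-10. Fbxw15 (-3.70 ± 0.20), Fbxw21 (-3.48 ± 0.21) and Fbxw24 (-3.28 ± 0.21) kept 7.70% to 10.3%. The shallowest falls were those of Fbxw18 (-2.53 ± 0.20), Fbxw19 (-2.30 ± 0.18) and Fbxw16 (-2.13 ± 0.22), which kept 17.3% to 22.8% with adjusted p from 1.61e-08 to 3.98e-07 in edgeR. In the single libraries Fbxw22 went from 464, 350 and 264 CPM at L1C to 14.0, 9.47 and 14.7 at L2C. Fbxw16 went from 322, 246 and 196 to 54.5, 31.4 and 61.3. Per kb of exon Fbxw22 was above Fbxw16 at L1C (196 against 141 CPM per kb) and below it at L2C (6.93 against 27.2). By the deposited TPM Fbxw22 was below Fbxw16 at L1C already, with 5.88% against 6.49% of the family level. Replicate 2 was the lowest of the L2C inputs for all 10 members. Between 109 and 6787 estimated counts stood behind each member value at L2C.

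Against MII the L2C levels of all 10 members were lower too, from -2.29 ± 0.22 (Fbxw16) to -4.71 ± 0.21 (Fbxw28), where 37.1% of tested genes were called lower and 47.5% higher. With Fbxw14 and Fbxw28 summed as 1 feature the fall from L1C to L2C was -4.31. The Fbxw14 values alone gave -4.05 ± 0.21.

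**Figure D3:**
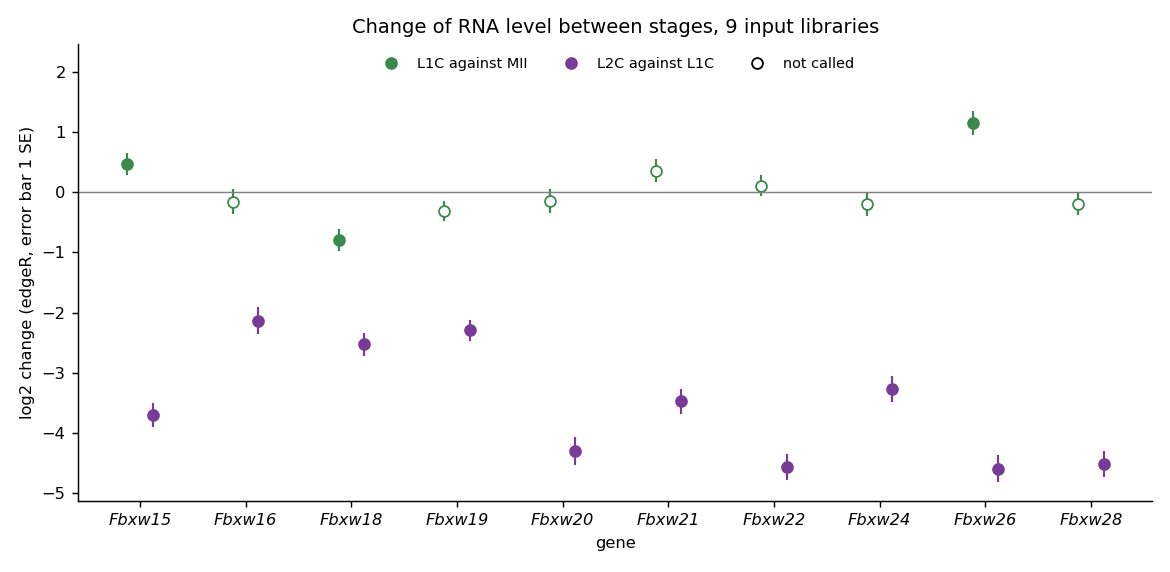
Log2 change of the RNA level from edgeR (y axis, error bars 1 SE) of each member (x axis) in the 9 inputs, L1C against MII in green and L2C against L1C in purple, filled where the adjusted p was under 0.05. The filled green points are Fbxw26 at 1.15, Fbxw15 at 0.47 and Fbxw18 at -0.80, and the purple points lie between -2.13 and -4.60.

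The fall of the family was set beside lists of related genes. Of 12 oocyte transcripts, 11 were called lower at L2C than at L1C and 1 higher, with a median log2 change of -2.72. Between MII and L1C 7 of the 12 were lower and 4 higher, with a median of -1.34. H1foo, the oocyte linker histone, changed by -2.87 ± 0.17 from MII to L1C, whereas Bmp15, an oocyte growth factor, changed by 0.28 ± 0.11 and then by -3.44 ± 0.12 from L1C to L2C. Of 13 tested other Fbxw genes, 9 were lower and 2 higher at L2C than at L1C (median -1.11). That list pools genes outside the cluster with the 5 other Fbxw genes of the cluster, which were all called lower. These were Fbxw14 (-4.05), Fbxw27 (-3.27), Fbxw25 (-2.84), Fbxw13 (-2.565) and Fbxw23 (-1.11), so falls of this size were not particular to the 10 members. Btrc, a widely expressed receptor of the same class, changed by -1.61 ± 0.13. Of the 8 tested cumulus and granulosa cell markers 5 were lower and 1 higher (median -1.99), with Cyp19a1 at -3.96 ± 0.25 and Amhr2 at 7.22 ± 0.20. The part of such cells in the fall of the family was not tested. Of 14 genes of the SCF core and its NEDD8 cycle, 8 were lower and 5 higher (median -1.03). Skp1a changed by -1.98 ± 0.17, Cul1 by -1.39 ± 0.14, the ubiquitin-conjugating enzyme gene Ube2d3 by -2.05 ± 0.23 and Rbx1 by 0.45 ± 0.16, and all 4 were called. The 5 protein-coding genes outside the family whose log2 CPM followed the family mean most closely over the 9 inputs were Mkln1, Ap3m1, Mastl, Map2k4 and Vps50, with Pearson r of 0.999 each. These r values rest mainly on the gap between L2C and the earlier stages. Single members had r of 0.972 (Fbxw18) to 0.999 (Fbxw22) with that mean, which includes them.

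IP against input gives the relative m6A level of a gene. At MII Fbxw26 was the only member called higher in the IP. It had 106, 103 and 106 CPM in the inputs and 240, 192 and 262 in the IPs, a log2 IP/input of 1.14 ± 0.19 SE (adjusted p = 5.99e-05). For the other 9 members log2 IP/input lay between -0.07 (Fbxw19) and 0.24 (Fbxw16) and input and IP overlapped. The sign of the values near 0 was not stable, as Fbxw19 and Fbxw24 (-0.01) had 0.17 and 0.23 with library size alone. Groups did not overlap for 1 of 10, against 22.8% of tested genes. Of 21950 genes tested in the 18 libraries, 17.7% were called higher in the IP at MII, and 21.0% lower, so 1 of 10 is no more than the background. Fbxw24, with 1825 to 1902 CPM in the inputs, had 1955, 1441 and 2161 in the IPs, and the 95% interval of its log2 IP/input ran from -0.40 to 0.38.

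At L1C 3 members were called higher in the IP, against 15.8% of tested genes (groups did not overlap for 3 of 10, Fbxw15, Fbxw21 and Fbxw26, against 23.0%): Fbxw15 (log2 IP/input 0.67 ± 0.19, adjusted p = 0.010), Fbxw26 (0.65 ± 0.18, adjusted p = 0.0089) and Fbxw28 (0.52 ± 0.18, adjusted p = 0.033). All 10 members had a positive value, from 0.33 (Fbxw19), with a median of 0.45 against 0.07 for all genes. This count rests on single libraries. Without input replicate 1, the highest of the L1C inputs, all 10 members were called, and without input replicate 3, the lowest, 0 of 10 were called (2 at an unadjusted p under 0.05, Fbxw15 and Fbxw26). Without IP replicate 1 it was 1. In a fit chosen after seeing the data, with 2 replicates a stage, 0 of 10 were called as well (again those 2 unadjusted). It leaves out L1C replicate 3. The study names these replicates in a remark after its proteomics deposit, while its rule for methylated genes speaks of 3 replicates, so they are not taken here as its selection of SLIM-seq libraries. The 3 members called at L1C had adjusted p of 0.077, 0.087 and 0.16 there, with log2 values of 0.59 for both Fbxw15 and Fbxw26 and 0.45 for Fbxw28. With a replicate block 9 members were called at L1C, all but Fbxw19 (adjusted p = 0.055), and 10 at L2C. Input and IP came from the same batches, but whether the replicate numbers mark them was not settled.

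At L2C 6 members were called higher in the IP, where 22.0% of tested genes were: Fbxw21 (1.02 ± 0.20), Fbxw15 (0.92 ± 0.20), Fbxw26 (0.80 ± 0.20), Fbxw28 (0.72 ± 0.19), Fbxw20 (0.61 ± 0.20) and Fbxw19 (0.46 ± 0.17), with adjusted p from 5.22e-04 to 0.035. Fbxw21 had 8.73, 5.10 and 8.52 CPM in the inputs and 17.6, 11.2 and 16.4 in the IPs, so every IP was above every input. Fbxw15 went from 16.7, 11.0 and 17.6 to 30.8, 23.3 and 31.6. Fbxw24 (0.48), Fbxw22 (0.44), Fbxw18 (0.41) and Fbxw16 (0.41) missed the threshold with adjusted p of 0.059, 0.070, 0.11 and 0.12. IP and input did not overlap for 8 of 10 members, which held for 28.6% of tested genes. The median over the members was 0.54 and over all genes 0.09. The thresholds of the study for a methylated gene were a log2 IP/input above 0 with an unadjusted P under 0.05 and over 1 count in the inputs. By edgeR 1, 6 and 8 members passed them at MII, L1C and L2C, against 19.5%, 18.9% and 24.3% of tested genes. By DESeq2, the tool of the study, 1, 10 and 8 passed, against 12.6%, 11.9% and 13.8% of 38247 genes tested without a filter. The conditions of the study that a gene be found in several replicates, and that a gene to which DESeq2 gives no P pass on its log2 value alone, were not applied, and genes with no P are outside these shares. With library size alone as the scaling, all 10 members were called at both L1C and L2C, while the median of all genes moved to 0.37 and 0.34 and that of the members to 0.76 and 0.80. The split of all calls moved too, from 3463 higher and 3988 lower to 6372 and 2613 at L1C, from 4830 and 4834 to 7315 and 3504 at L2C, and from 3877 and 4599 to 5744 and 3565 at MII. Fbxw15, Fbxw21, Fbxw26 and Fbxw28 remained called at L2C with the 2 replicates a stage, and Fbxw19 and Fbxw20 did not (adjusted p = 0.078 and 0.081). Both also lost the call without L2C input replicate 2 (adjusted p = 0.20 and 0.103) or L2C IP replicate 1, and Fbxw19 without L2C IP replicate 3. No member was called lower in the IP at any stage by edgeR or DESeq2, where 21.0%, 18.2% and 22.0% of all tested genes were called lower at MII, L1C and L2C by edgeR. At an unadjusted p under 0.05 the count of lower members was 0 with both tools as well.

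**Figure D4:**
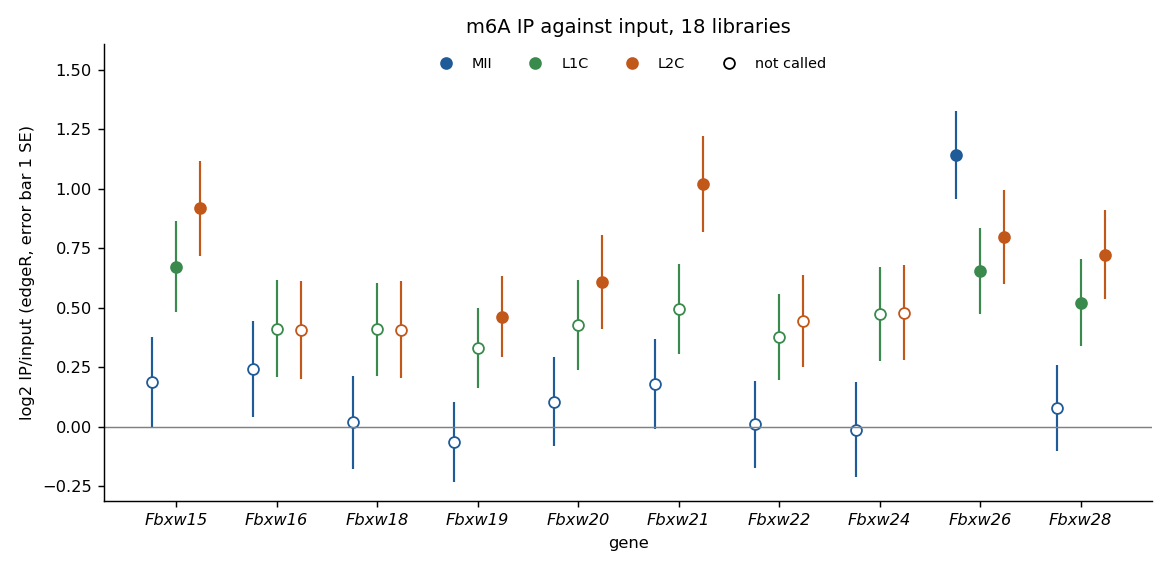
Log2 IP/input from edgeR (y axis, error bars 1 SE) of each member (x axis) at MII (blue), L1C (green) and L2C (orange), filled where the adjusted p was under 0.05. At MII 9 members lie near 0 and Fbxw26 at 1.14, while at L1C and L2C all 10 points are above 0.

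A change of the enrichment between stages was tested as an interaction. From MII to L1C and from L1C to L2C none of the 10 members was called in the edgeR fit, nor in DESeq2, and 0 passed an unadjusted p of 0.05 in either. The background was 3.13% and 5.0% of tested genes called higher and 4.21% and 4.47% lower. From MII to L2C Fbxw21 was called higher by 0.84 ± 0.28 (adjusted p = 0.038), where 11.1% of genes were called higher and 9.21% lower. Fbxw15 (0.73, adjusted p = 0.068) and Fbxw28 (0.65, adjusted p = 0.088) followed. Fbxw26 had a difference of -0.34 ± 0.27 from MII to L2C (adjusted p = 0.42), and the other 9 values were positive in this fit. The call of Fbxw21 was lost with only the stages compared, with 2 replicates a stage, and without any 1 of the 3 MII inputs, L2C input replicate 2, MII IP replicate 1 or 2, L1C IP replicate 2 or L2C IP replicate 1 or 3, with adjusted p up to 0.105. Others gained a call under some settings, Fbxw15 with no filter, with a replicate block, without MII IP replicate 3 and without L2C IP replicate 2 (adjusted p down to 0.015), and Fbxw28 with no filter and with the block (down to 0.033). Over all alternatives adjusted p ran from 0.015 to 0.18 for Fbxw15 and from 0.033 to 0.22 for Fbxw28.

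Of the 14 SCF core and NEDD8 cycle genes, 8 were higher in the IP at each of the 3 stages, and 3, 1 and 1 were lower (9, 8 and 11 higher with library size alone, and as many lower). In stage order Skp1a had log2 IP/input of 0.92 ± 0.18, 0.84 ± 0.18 and 0.89 ± 0.18, and Rbx1 had 0.91 ± 0.15, 0.73 ± 0.15 and 0.61 ± 0.15, all called. Cul1 was lower in the IP at MII (-0.62 ± 0.12) and was not called at L1C (-0.21), where its sign turned with library size alone, or at L2C (0.11). Of 15 other Fbxw genes, 0, 1 and 3 were higher and 5, 4 and 3 lower at the respective stages. With library size alone it was 2, 5 and 7 higher and 4, 3 and 3 lower. Fbxw7, called higher at L2C with TMM scaling, had 0 CPM in the inputs of every stage and 10.6 ± 4.44 in the L2C IPs. Fbxw14 had 0.53 ± 0.19 at L1C and 0.78 ± 0.19 at L2C, both called, and Btrc was lower at MII (-0.79 ± 0.13). The remaining cluster genes Fbxw25 (0.48), Fbxw27 (0.46), Fbxw23 (0.40) and Fbxw13 (0.27) had positive values at L1C too, none of them called. At L2C Fbxw23 (0.61) was called, and Fbxw13 (0.53), Fbxw25 (0.45) and Fbxw27 (0.35) were not. Of 12 oocyte transcripts 4, 5 and 4 were higher and 2, 4 and 5 lower. With library size alone 5, 6 and 5 were higher and 2, 1 and 4 lower. The oocyte transcript Bmp15 was higher in the IP at each stage (1.198 ± 0.099, 0.30 ± 0.10 and 0.65 ± 0.10), and H1foo was lower (-0.67 ± 0.15, -0.39 ± 0.15 and -0.73 ± 0.15), at L1C not with library size alone (-0.10, adjusted p = 0.64).

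In late 2-cell embryos after Ythdc1 KD, 9 of the 10 members were called lower than in Ctrl and their groups did not overlap. Their median log2 change was -0.62 and that of all genes -0.09. This comparison moved much of the transcriptome, as 36.4% of 17074 tested genes were called lower, 30.5% higher, and 41.6% had lower groups without overlap. The values here are exon counts scaled within the 5 libraries, and their level is not comparable with the SLIM-seq CPM. Summed over the family they were 1278, 1279 and 1055 CPM in Ctrl and 858 and 761 in KD, a mean of 67.2% of Ctrl.

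By edgeR Fbxw26 had the largest fall, from 28.1, 35.5 and 28.9 CPM in Ctrl to 7.57 and 5.55 in KD, a log2 change of -2.22 ± 0.17 SE (adjusted p = 3.40e-08) that left 21.4% of the Ctrl level. Fbxw18 went from 98.1, 93.5 and 75.0 to 45.2 and 36.6 CPM, a change of -1.12 ± 0.13 (adjusted p = 1.96e-06). These were also the 2 members past the threshold that the study used, an unadjusted P under 0.05 with a log2 change over 1 in size, which 24.5% of tested genes passed on the lower side. With DESeq2 it was 2 as well, against 17.3% of 28191 genes tested without a filter. Fbxw28 (-0.67 ± 0.09), Fbxw20 (-0.66 ± 0.13), Fbxw16 (-0.64 ± 0.10), Fbxw19 (-0.59 ± 0.11), Fbxw15 (-0.52 ± 0.13) and Fbxw24 (-0.44 ± 0.10) were also called, with adjusted p from 1.21e-05 to 0.0019. Fbxw24, still the highest member, had 570, 577 and 458 CPM in Ctrl and 422 and 369 in KD. Fbxw28 summed with Fbxw14 gave -0.65.

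Fbxw21 and Fbxw22 changed least. Fbxw21 had 25.5, 23.5 and 22.5 CPM in Ctrl and 18.4 and 19.1 in KD (-0.35 ± 0.13, adjusted p = 0.024), and its call was lost under DESeq2, without either KD library and without Ctrl replicate 1 or 2 (adjusted p up to 0.13). Fbxw22 had 31.7, 31.1 and 26.9 CPM in Ctrl and 27.3 and 24.04 in KD and was not called (-0.22 ± 0.12, adjusted p = 0.12). Its 95% interval ran from -0.46 to 0.02, so a fall of the size seen for Fbxw28 is outside it. With library size alone it was called (-0.30, adjusted p = 0.040), and likewise without Ctrl replicate 3 (-0.30, adjusted p = 0.034) and with a replicate block. The difference between members was not tested. Both groups are L2C embryos, the stage at which the input levels of all 10 members were lowest.

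**Figure D5:**
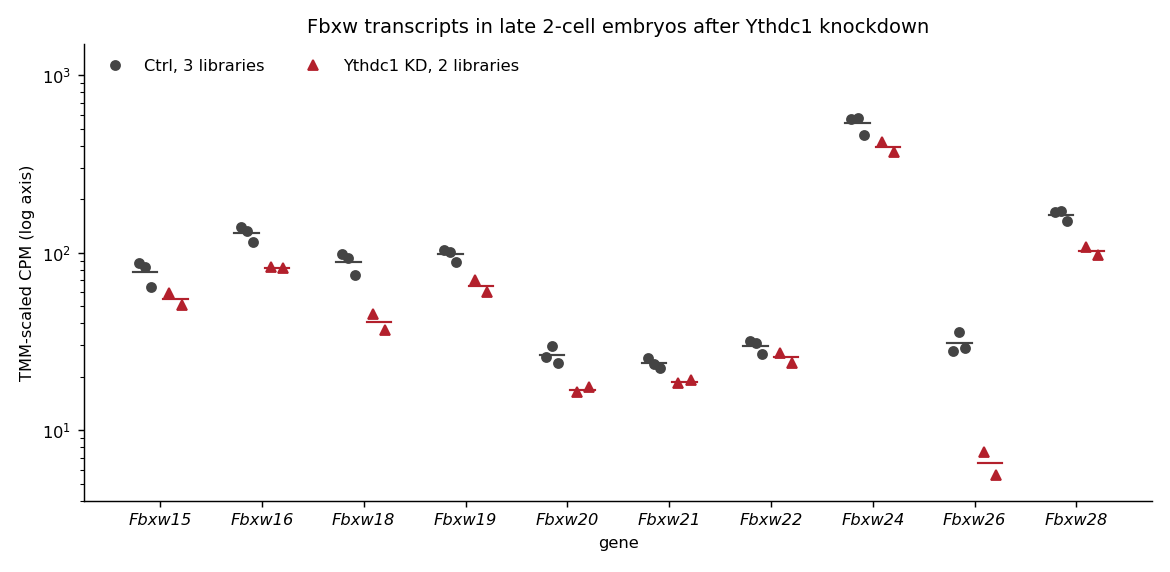
TMM-scaled CPM of exon counts on a log axis (y) of each member (x) in late 2-cell embryos, 3 Ctrl libraries as grey circles and 2 Ythdc1 KD libraries as red triangles, with bars at the group means. The KD libraries lie below the Ctrl libraries for 9 members, the gap is widest for Fbxw26 (30.8 against 6.56 CPM), and the groups overlap for Fbxw22.

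Other lists moved in the KD as well. Of 12 oocyte transcripts 8 were lower and 2 higher, and their summed level was 1728 to 1853 CPM in Ctrl and 874 to 940 in KD. All 8 tested markers of the 2-cell embryo were lower, with sums of 1438 to 1522 and 481 to 534 CPM. The cumulus and granulosa list had 33.2 to 37.9 CPM in Ctrl and 46.1 to 47.9 in KD, with 5 of its 12 genes at 0 in each group. Of its 4 tested genes 1 was higher, Amhr2 (20.1 ± 2.36 CPM in Ctrl and 30.1 ± 3.52 in KD), and 1 was lower, Cyp19a1 (1.68 ± 0.75 and 0.092 ± 0.13). The part of these shifts in the family's change was not tested. Of 13 tested Fbxw genes outside the 10, 7 were lower and 3 higher. Fbxw14, the near copy of Fbxw28, changed by -0.62 ± 0.10, and Btrc by 0.60 ± 0.10. Of the remaining cluster genes Fbxw23 (-1.42), Fbxw13 (-1.03) and Fbxw27 (-0.87) were called lower and Fbxw25 (0.68) higher. In the SCF core and NEDD8 cycle 6 of 14 were higher and 2 lower, with Rbx1 at 0.55 ± 0.07, Cul1 at -0.47 ± 0.08 and Skp1a not called at -0.16 ± 0.08 (adjusted p = 0.079), but called with library size alone (-0.24, adjusted p = 0.0085).

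Set side by side, Fbxw26 stood at an end of the family in some readouts and not in others. It had the only called IP enrichment at MII, the largest rise to L1C (log2 1.15), the deepest fall from L1C to L2C (-4.60, within 1 SE of Fbxw22 and Fbxw28) and the largest fall in the Ythdc1 KD (-2.22). Its IP enrichment at MII and its rise to L1C share the 3 MII inputs, and its rise to L1C and its fall from L1C share the L1C inputs, so these are not separate observations. Against MII its L2C level had changed by -3.45, less than that of Fbxw28 (-4.71), Fbxw22 (-4.46), Fbxw20 (-4.45) and Fbxw24 (-3.47). Its log2 IP/input was below that of Fbxw15 at L1C, and below those of Fbxw21 and Fbxw15 at L2C. At L2C log2 IP/input was 0.41 for Fbxw16 with 1 copy of GGACT, 0.41 (Fbxw18) to 0.80 (Fbxw26) for the 7 members with 2 copies, 1.02 for Fbxw21 with 3 and 0.92 for Fbxw15 with 4. The other stages did not show that order. At MII Fbxw26 had 1.14 and Fbxw16 0.24, above Fbxw15 (0.19) and Fbxw21 (0.18). At L1C Fbxw21 had 0.49, below Fbxw26 (0.65) and Fbxw28 (0.52) with 2 copies each. With the DRACH form AGACT, the form GAACT and the form GGACA counted as well, Fbxw16 and Fbxw21 had the most matches with 11 each, and Fbxw15 had 8. Fbxw22 changed by -4.57 from L1C to L2C and by -0.22 in the KD. These are values of 10 related genes in shared libraries, and no relation between the readouts was tested.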

How the data were processed

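MII, L1C and L2C inputs and IPs (3 each) and L2C Ythdc1 KD and Ctrl libraries were used, from RNA labelled as polyA. For SLIM-seq the authors deposited kallisto estimated counts and TPM per gene, built on whole gene spans with introns. For the knockdown they deposited raw exon counts (Trimmomatic, Hisat2 and featureCounts v2.0.1, GRCm38), with reads mapping to several places not counted and strand not used. The version of kallisto is not given in the sources used here. Per the labels the kit was stranded. The authors' merged knockdown table stops before the family and was not used.

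Estimated counts were rounded. Counts were fitted with edgeR 4.0.16 in R 4.3.3 (TMM, filterByExpr, quasi-likelihood F test), and Benjamini-Hochberg adjusted p-values over all genes tested were called under 0.05. IP against input and its change between stages came from 1 fit of the 18 libraries, stages from the 9 inputs. SE is the log2 change over the square root of F, and 95% intervals are 1.96 SE. The scripts were tested on simulated data: of 100 genes changed by a log2 of 2, 96 were recovered between L1C and L2C inputs, 85 for IP against input at L1C, 74 for the change of enrichment from MII to L1C and 90 in the 2 against 3 knockdown design, and of 100 changed by a log2 of 1 it was 68, 55, 18 and 48. The spread between simulated libraries was set to a fixed value and not estimated from these libraries, so the recovered counts need not hold for them. Levels between genes are CPM per kb of exon. Sequence words were counted in GRCm38. Alternatives were DESeq2 1.42.0, library size alone, no filter, a replicate block, only the stages compared, each library left out, deposited TPM and the study's thresholds. Fbxw14 plus Fbxw28, a subset of 2 replicates a stage, and the study's thresholds with DESeq2 were added after the data were seen. The text names all members, the 2 most abundant genes of the lists of other Fbxw genes, SCF genes and oocyte transcripts, with Skp1a, Cul1 and Rbx1, and the 5 genes most like the family. Single cumulus and granulosa cell markers, the remaining Fbxw genes of the cluster, Fbxw7 and Tcstv1 were named after their values were seen. Members and lists were chosen with earlier results of these data known.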

Additional observations from a re-analysis of the deposited data

Results flagged for a closer look

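The IP enrichment of Fbxw21 differed between stages: log2 IP/input was 0.18 ± 0.19 SE at MII and 1.02 ± 0.20 at L2C, a difference of 0.84 ± 0.28 in the interaction test of edgeR (adjusted p = 0.038). The call was lost without any 1 of 9 of the 18 libraries, with only the stages compared and with a subset of 2 replicates a stage, with adjusted p from 0.0067 to 0.105 over all alternatives. The 3 IPs were above the 3 inputs at L2C and overlapped them at MII.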

How the results depend on the processing

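The falls of all 10 members at L2C kept direction and call in 302 of 302 alternatives, between -4.86 and -1.91, and the KD value of Fbxw26 lay between -2.47 and -2.01. Over all comparisons, single members kept direction and side of the threshold in 1823 of 1990 alternatives, lost the call in 40 and gained it in 64. In the other 63 the sign turned for a value that passed the test in neither fit, 41 of them for the change of enrichment from L1C to L2C, 19 for the IP at MII and 3 elsewhere, none above 0.23 in size. No called value turned. The counts of members called in the IP depended on the settings. At L1C (3 members) the count was 10 with library size alone, 8 with no filter on low counts, 6 with DESeq2, 9 with a replicate block, 6 at the unadjusted threshold of the study with edgeR, 10 at that threshold with DESeq2, the tool of the study, and 0 with a subset of 2 replicates a stage. At L2C (6 members) it was 10 with library size alone and 10 with the block, and at MII (1) it was 2 with only the stages compared. For the change of enrichment from MII to L2C (1) it was 3 with no filter, 3 with the block, 0 with only the stages compared and 0 with the subset of 2 replicates. Between MII and L1C inputs 1 member was higher with DESeq2 and 2 were lower with no filter. In the KD, 2 were lower at the threshold of the study with edgeR and 2 with DESeq2, against 9 at the adjusted one, where it was 8 with DESeq2, 10 with library size alone and 10 with the block (Fbxw22 at -0.29, adjusted p = 0.034). The causes were not tested.

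Leaving out 1 library at a time gave 0 to 10 members at L1C, 4 to 8 at L2C and 1 at MII in the IP, 0 to 2 for the change of enrichment from MII to L2C, 1 to 3 higher and 1 to 2 lower at L1C against MII, 10 lower at L2C and 8 to 10 lower in the KD. The share of the family level by the deposited TPM was 27.84%, 26.32% and 31.48% for Fbxw24 and 35.2%, 33.54% and 16.99% for Fbxw28 at MII, L1C and L2C. The study took input and IP RNA from the same batches, but the labels do not say that a replicate number marks a batch. Over all genes, deviations of same-numbered samples correlated at -0.13 to 0.11, and 1 of 3 inputs at MII and 0 of 3 at L1C and L2C correlated best with the IP of their own number. For all 10 members replicate 1 was the highest and replicate 3 the lowest of both the L1C inputs and the L1C IPs, and replicate 2 was the lowest of both at L2C. At MII replicate 3 was the highest and replicate 2 the lowest IP for all 10. The MII inputs had no common order, with replicates 1, 2 and 3 highest for 4, 2 and 4 members. Members deviated together, so they are not separate observations of a pairing. Whether the numbers pair the samples was not settled. With the subset of 2 replicates 4 members were called at L2C. Fbxw28 kept all its calls when summed with Fbxw14. Member values at L2C rest on 109 estimated counts at the lowest, and the KD on 2 libraries, so small changes there can be missed, as can changes of enrichment of a log2 near 1.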
